A study of Saccharomyces cerevisiae with 31 samples.

Results

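The end of the slow stretch of a yeast metabolic cycle was set against its beginning. The late window held the 5 arrays labelled 243.30, 255.17, 267.03, 278.90 and 290.77 degrees, taken from 13.87 to 14.13 h, and the early window the 3 arrays labelled 89.01, 100.88 and 112.75 degrees, taken from 13.00 to 13.13 h. The arrays were assigned by their labelled phase angle and are 8 of 31 in all. The ranges of angle were chosen with earlier results of these data known, as the start and end of the stretch outside the growth burst. The place of the windows relative to that burst is therefore part of the choice. Every probe set of Saccharomyces cerevisiae was compared, 5498 in number, and 5422 of them, for 5382 genes, passed a filter on low intensity and were tested. The study followed the strain CEN.PK122 on Affymetrix Yeast 2.0 arrays through a little over 1 cycle of an oscillation with a nominal period of 2 h, with 1 array every 4 min. Both windows come from the same aerated continuous culture of this strain, with no added agent, mutation or control culture named in the labels. A window is therefore a run of neighbouring time points of 1 culture in 1 cycle, and its arrays are not separate cultures. The p-values measure the spread among these arrays only, and say nothing about recurrence in another cycle.

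Budding yeast in dense continuous culture can swing together between stretches of high and low oxygen use, and much of its genome is then transcribed in turn. Genes for making ribosomes are switched on in a short burst when growth signals and carbon are plentiful, through nutrient signalling by target of rapamycin and protein kinase A. Outside that burst, cells express genes for respiration, for storage carbohydrate, for the use of acetate, ethanol and fatty acids, and for stress resistance. Respiratory and reductive stretches are named in the labels without being tied to angles.

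These arrays showed the burst at the start of the record. In the median gene of the ribosome biogenesis list, the normalized log2 intensity from 5.93 to 41.54 degrees lay 3.13 above the early window, and the late window lay 1.16 above the early window. Both windows therefore lay outside the burst, with the early one just after it and the late one on the way to the next. Median deposited intensities per array were 1400.5 to 1935.65 in the late window and 1286.7 to 1772.5 in the early window, and precision is limited by how few arrays each window holds. Late arrays 4 min apart differed by 0.097 to 0.109 on the log2 scale on average over probe sets, and early arrays 4 min apart by 0.140 to 0.152. The outermost early arrays, at 89.01 and 112.75 degrees, differed by 0.231, and the outermost late arrays by 0.161, so the early window held the steeper changes. The labels name no batches. The array numbers in them split the arrays in 2, and the poly-A spike controls, relative to the hybridization spikes, lay between -4.37 and -3.68 on the log2 scale in the 16 lower-numbered arrays and between -5.41 and -4.78 in the other 15. These sets are called batch 1 and batch 2 here, and what they stand for is not known: batch 1 held 2 late arrays and 1 early array, and batch 2 held 3 late arrays and 2 early arrays. The early array at 89.01 degrees was in batch 1 and that at 112.75 degrees in batch 2. Both outermost late arrays were in batch 2. Changes from the first to the last early array, here and below, therefore also cross the batches.

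Genes for ribosome assembly, RNA polymerase I and III, sulfur and methionine, sterol synthesis and daughter cell separation were mostly higher late than early. Mostly lower were genes for mitochondrial ribosomes, mitochondrial import, glycogen and trehalose, and a list joining the glyoxylate cycle, gluconeogenesis and acetate use. The largest rise was 7.10-fold, for the formate dehydrogenase gene FDH1, and the largest fall was 6.18-fold, for YNR014W, a gene of unknown function. Among 5422 probe sets, limma's moderated test called 2798 (51.6%) at an adjusted p under 0.05, 1264 (23.3%) higher and 1534 (28.3%) lower in the late window. A difference of 2-fold or more was reached by 170 probe sets (3.14%) that were higher and by 44 (0.812%) that were lower, 214 (3.95%) in all. The windows did not overlap for 2689 probe sets (49.6%), 1216 higher (22.4%) and 1473 lower (27.2%), and 2544 (46.9%) both passed and did not overlap. Neighbouring arrays share their place in a smooth course, and with an assumed serial correlation of 0.5 the count of calls fell to 1268, while all but 13 of the 214 calls at 2-fold or more remained. The split between directions depended on scaling, since 45.2% of calls were higher here, against 60.7% on the deposited scale and 72.0% with scaling by the hybridization spikes, which moved the median difference of all probe sets to 0.10, against -0.02 here. On the deposited scale limma pooled the variance over all probe sets, so that a call there is a difference of 0.499 or more and nothing else. With each probe set's own variance on that scale, an alternative added after this was seen, 402 probe sets were called, 184 of the 214 among them. All 214 calls at 2-fold or more kept their direction under each of these scalings and within each batch. They were picked for a large difference in these same arrays, so a change of direction was unlikely and this is no separate support. Calls in the gene lists below also thinned with serial correlation: 13 of 23 higher calls were left for sulfur and methionine, 9 of 16 for ergosterol, 4 of 9 for fatty acid synthesis and 8 of 14 for inositol and phospholipids. Of lower calls, 10 of 24 were left for mitochondrial import and 7 of 13 for the glyoxylate cycle, gluconeogenesis and acetate use. For stress 10 of 21 were left, for iron and copper 6 of 14, and for DNA replication 5 of 20. Other lists thinned too. Of higher calls, 9 of 29 were left for cytosolic ribosomal proteins, 2 of 7 for cytosolic tRNA synthetases, 2 of 8 for redox and 1 of 7 for nitrogen genes. Of lower calls, 0 of 4 were left for cytosolic ribosomal proteins, 3 of 12 for peroxins, 5 of 11 for autophagy, 1 of 8 for redox and 3 of 7 for nitrogen genes.

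**Figure D1:**
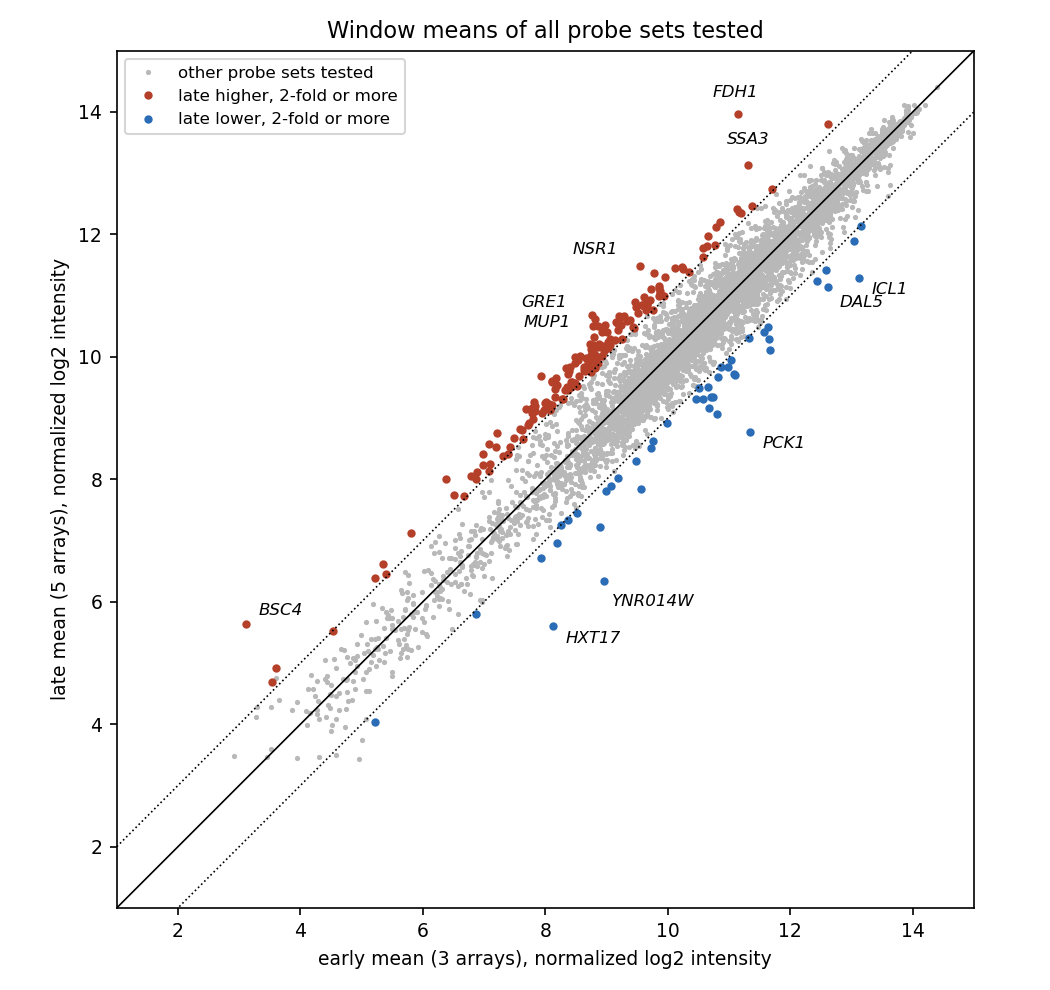
Mean normalized log2 intensity in the late window (vertical axis, 5 arrays) against the early window (horizontal axis, 3 arrays) for the 5422 probe sets tested. The solid line marks equal means and the dotted lines a 2-fold difference; red points are the 170 probe sets called higher in the late window at 2-fold or more and blue points the 44 called lower, and the named genes are described in the text.

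The genes that were higher late and those that were lower late had different courses over the rest of the cycle. Of the 169 genes called higher at 2-fold or more, 150 had their highest window mean from 5.93 to 41.54 degrees, in the burst, and 116 had their lowest in the early window itself. Within the early window 141 of the 169 fell from its first to its last array, and within the late window 151 rose. The first early array was in batch 1 and the last in batch 2, and the part of batch in the early count was not tested. Among all 5382 genes tested, 2742 rose and 2623 fell within the early window, and 2553 rose and 2811 fell within the late one. Of the 43 genes called lower at 2-fold or more, 29 had their highest window mean in the early window and 26 their lowest from 5.93 to 41.54 degrees. Among all 5382 genes tested, 1774 (33.0%) had their highest and 1959 (36.4%) their lowest window mean from 5.93 to 41.54 degrees, and 956 had their highest and 811 their lowest window mean in the early window, so the shares among the 2-fold genes describe how they were chosen as well as how they behaved.

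Ribosome assembly gave the largest group. Of 79 listed genes, 78 (98.7%) were higher in the late window and none was lower, against 23.3% and 28.3% of all probe sets. Of the 78, 55 differed by 2-fold or more. The median difference was 1.16 on the log2 scale, against -0.02 for all genes tested. Only ESF1, chosen here after its value was seen, did not pass, with a difference of 0.04. NSR1 encodes the yeast nucleolin, a nucleolar protein needed for processing of the precursor of ribosomal RNA. Its normalized log2 intensity was 11.14, 11.29, 11.47, 11.63 and 11.86 in the late arrays, against 9.56, 9.51 and 9.55 in the early arrays. The late values climbed with the angle while the early ones were flat, and the windows did not overlap. The difference was 1.94 ± 0.14 (SE), a 3.83-fold rise, with an adjusted p of 2.47e-05.

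RSA4 encodes an assembly factor of the large ribosomal subunit. It read 9.38, 9.56, 9.54, 9.76 and 10.15 in the late arrays, against 8.14, 7.72 and 7.91 in the early arrays, so every late value lay above every early one. The rise was 1.76 ± 0.17 (SE, adjusted p = 7.5e-05). UTP5, a subunit of the small subunit processome, rose by 1.52 ± 0.14 (SE), and RIX7, an ATPase that acts on the large subunit precursor, by 1.50 ± 0.10 (SE). KRE33, which encodes the acetyltransferase of the small subunit RNA, rose by 1.72 ± 0.14, and the assembly genes RRP36 and SSF1 rose by 1.63 ± 0.11 and 1.56 ± 0.14 (SE). Within the late window 77 of the 79 list members rose from 243.30 to 290.77 degrees, by a median of 0.32, and within the early window only 3 rose from 89.01 to 112.75 degrees, with a median change of -0.38. The list median was 0.95 within batch 1 and 1.26 within batch 2.

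The polymerases that transcribe ribosomal RNA and transfer RNA genes went the same way. Of 20 genes for RNA polymerase I and III, 19 were higher late and none was lower, 7 by 2-fold or more, and the median difference was 0.81. RPC19 encodes a subunit shared by both enzymes. It read 11.19, 11.30, 11.40, 11.43 and 11.52 in the late arrays, against 9.90, 9.74 and 9.68 in the early arrays. The late values rose and the early values fell with the angle, and the difference was 1.59 ± 0.08 (SE, adjusted p = 1.04e-05). The polymerase I subunit genes RPA12, RPA49 and RPA43 rose by 1.63 ± 0.09, 1.48 ± 0.15 and 1.47 ± 0.14 (SE). RPA190, the largest subunit of polymerase I, was the 1 member that did not pass, with a difference of 0.64; it is named because it was the exception.

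The ribosomal proteins themselves differed far less. Of 127 genes for cytosolic ribosomal proteins, 29 (22.8%) were higher late and 4 (3.15%) lower, shares at and under those of all genes tested, and the median difference of 0.08 became -0.03 within batch 1 and -0.00 with median centring. The largest were RPL22B, with 0.97 ± 0.10, RPS9A, with 0.75 ± 0.05, and RPL13A, with 0.71 ± 0.11 (SE), all higher late. RPL41A was lower by -0.80 ± 0.17 (SE), a call lost with serial correlation (adjusted p = 0.0956). Each of these genes has a close paralog, and hybridization between copies was not tested. Of 19 cytosolic tRNA synthetase genes, 7 (36.8%) were higher and 1 (5.26%) lower, with a median of 0.09 that was -0.07 within batch 1. WRS1 and MES1, for tryptophan and methionine, rose by 0.60 ± 0.07 and 0.51 ± 0.06 (SE), though the call of MES1 was lost within batch 1 (adjusted p = 0.0503).

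Nucleotide genes showed no common direction. Of 36 genes for purine and pyrimidine synthesis, 12 (33.3%) were higher and 10 (27.8%) lower late, against 23.3% and 28.3% of all probe sets, with a median of 0.05 that was negative on the deposited scale (-0.02), with median centring (-0.04) and within batch 1 (-0.03). URA7, which encodes CTP synthase, read 10.21, 10.24, 10.45, 10.70 and 11.01 in the late arrays, against 9.11, 8.95 and 8.84 in the early arrays. Its late values climbed and its early values fell, and the rise was 1.55 ± 0.18 (SE, adjusted p = 0.000183). FUI1, the uridine permease, and AAH1, adenine deaminase, rose by 1.35 ± 0.10 and 1.30 ± 0.18 (SE). IMD2, an inosine monophosphate dehydrogenase gene of guanine nucleotide synthesis, was lower, with 8.59, 8.46, 8.54, 8.63 and 8.32 in the late arrays, against 9.78, 9.80 and 9.63 in the early arrays. It was flat within each window and fell by 1.22 ± 0.08 (SE, adjusted p = 1.59e-05) on the log2 scale. IMD2 has close paralogs, and hybridization between copies was not tested.

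Of 35 genes for sulfur assimilation and methionine, 23 (65.7%) were higher late, 1 (2.86%) was lower and 11 did not pass. Among all probe sets 23.3% were higher and 28.3% lower. The median difference of the list was 0.45. MUP1, the high-affinity methionine permease, read 10.50, 10.64, 10.65, 10.68 and 10.67 in the late arrays, against 8.99, 8.90 and 8.53 in the early arrays. The late values were flat after the first, the early ones fell, and the difference was 1.82 ± 0.10 (SE, adjusted p = 1.05e-05), a 3.53-fold rise. MMP1, which takes up S-methylmethionine, rose by 1.33 ± 0.08, and STR3, which encodes a cystathionine lyase, by 0.98 ± 0.09 (SE). MET2, homoserine acetyltransferase, rose by 0.92 ± 0.24 (SE), but by 0.57 without the array at 112.75 degrees, and its call was lost within batch 1 (adjusted p = 0.0644) and with serial correlation (adjusted p = 0.121). The lowest window of 28 of the 35 genes was not the early one but the next, from 124.62 to 172.09 degrees, so the early arrays caught these genes on their way down.

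Other amino acid genes moved less. Of 63, 16 (25.4%) were higher and 11 (17.5%) lower late, against 23.3% and 28.3% of all probe sets. Their median of 0.08 was -0.06 within batch 1. ARG8, an arginine synthesis enzyme, and GLY1, threonine aldolase, were higher by 0.53 ± 0.07 and 0.48 ± 0.09 (SE). SHM2 and SER3, which act in glycine and serine synthesis, were lower by -0.70 ± 0.11 and -0.69 ± 0.11 (SE), and SER3 had -0.36 within batch 1 with the call lost (adjusted p = 0.0749).

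**Figure D2:**
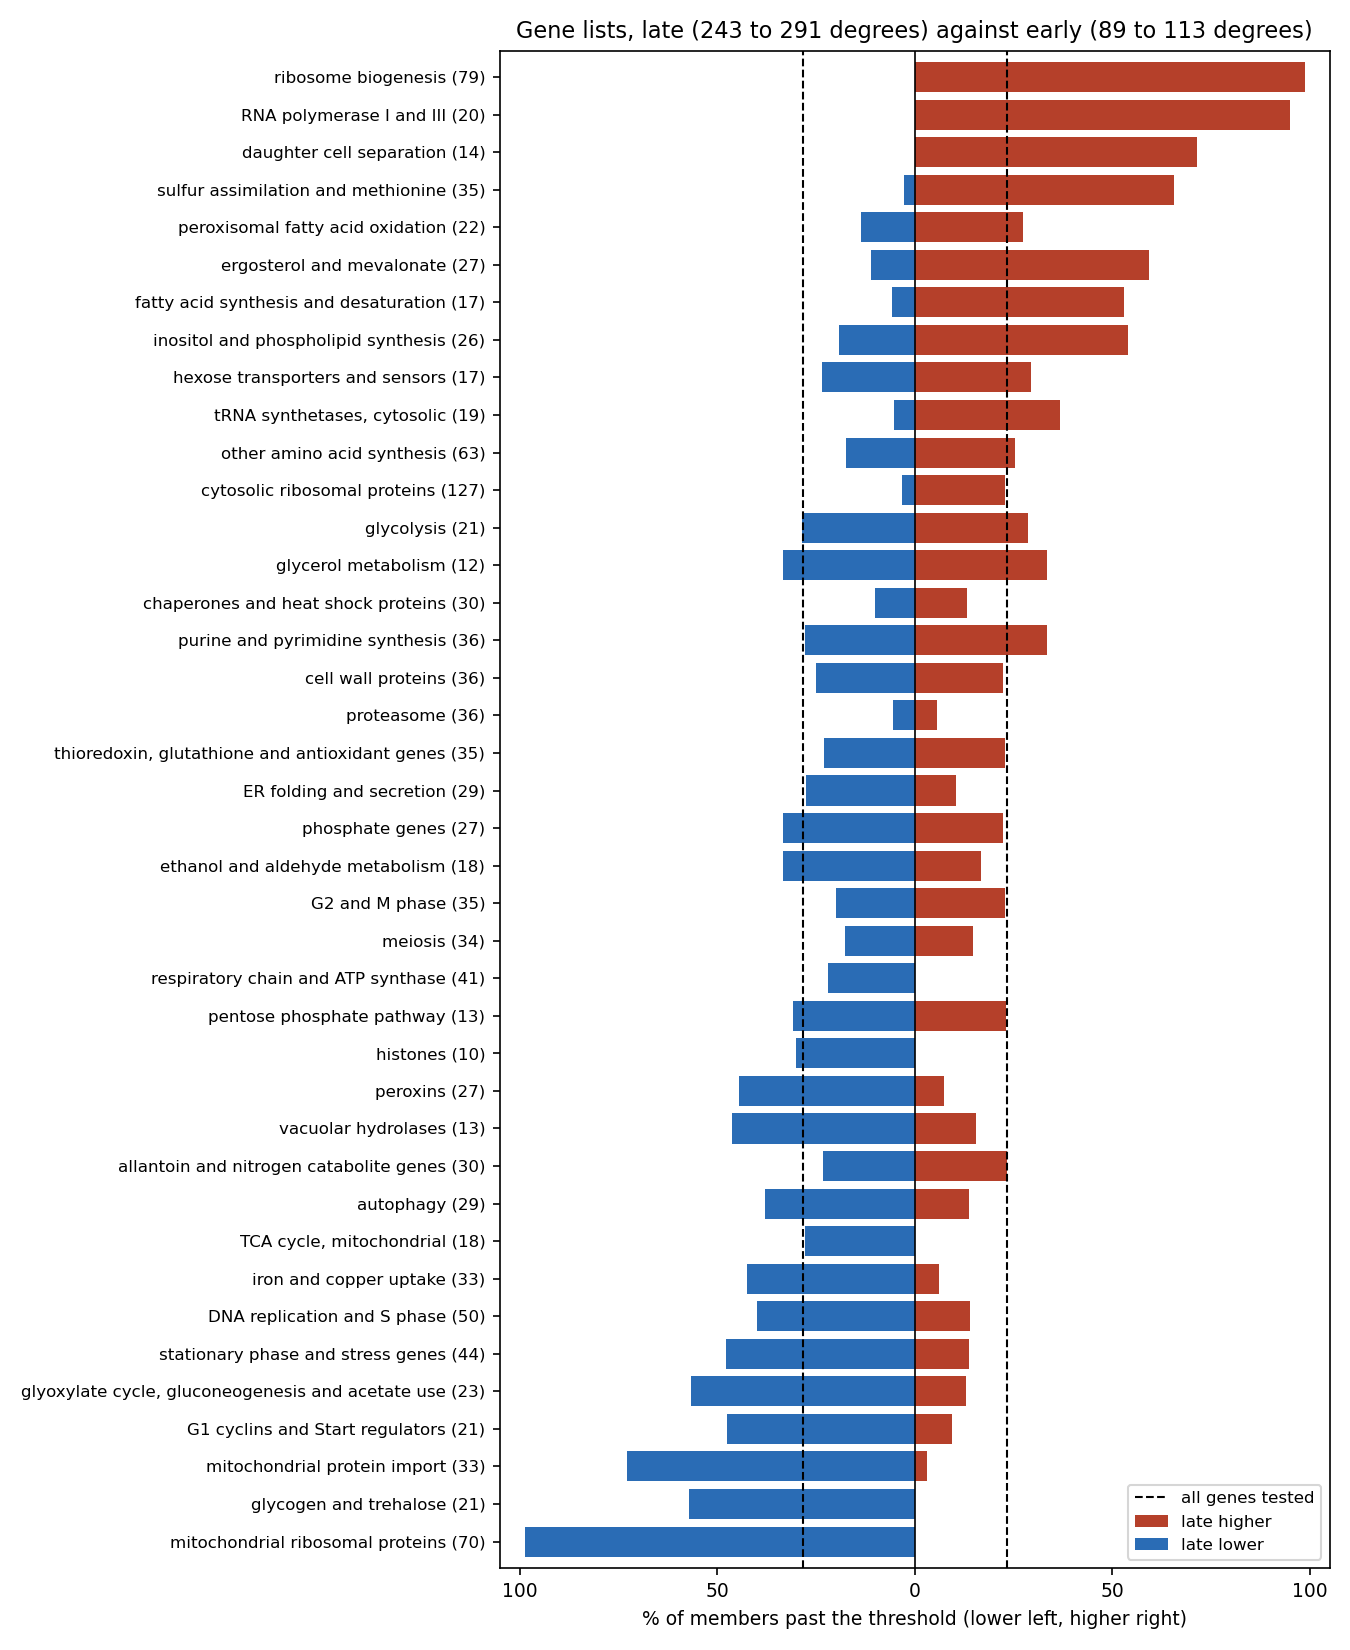
Share of each gene list past the threshold in the comparison of the late with the early window (horizontal axis, % of members tested), with members higher late to the right in red and members lower late to the left in blue; the number of members tested follows each name, and lists run by their median difference. Dashed lines mark the shares among all genes tested, 23.3% higher and 28.3% lower; ribosome biogenesis at the top and mitochondrial ribosomal proteins at the bottom reach almost all their members in opposite directions.

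Mitochondrial translation went the opposite way. Mitochondrial ribosomal proteins are encoded in the nucleus and build the separate ribosome that makes a few core subunits of the respiratory chain. Of 70 such genes, 69 (98.6%) were lower in the late window and none was higher, against 28.3% and 23.3% of all probe sets. None reached 2-fold, and the median difference was -0.59. The differences ran from -0.95 for MRPL19 to -0.22 for MRPL50, the 1 member that did not pass, named for that reason. MRPL19, a large subunit protein, read 10.66, 10.62, 10.50, 10.52 and 10.49 in the late arrays, against 11.40, 11.52 and 11.61 in the early arrays. Its early values rose and its late values fell, the windows did not overlap, and it fell by 0.95 ± 0.06 (SE, adjusted p = 1.7e-05) on the log2 scale. The small subunit genes RSM26, MRPS35 and MRPS17 fell by 0.90 ± 0.07, 0.90 ± 0.07 and 0.89 ± 0.08 (SE). The highest window was the early one for 43 of the 70 genes and the next, from 124.62 to 172.09 degrees, for the other 27. Within the early window 67 of the 70 rose, by a median of 0.21, and within the late window 8 rose, with a median change of -0.12. The list median was -0.48 within batch 1 and -0.66 within batch 2.

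Protein import into mitochondria followed. Of 33 genes, 24 (72.7%) were lower and 1 (3.03%) higher late, against 28.3% and 23.3% of all probe sets, with a median of -0.22. PAM16, part of the motor that pulls proteins into the matrix, fell by 0.84 ± 0.11, and TIM44, which tethers that motor to the channel, by 0.63 ± 0.07 (SE). MAS1, a subunit of the protease that removes targeting sequences, fell by 0.54 ± 0.05 (SE). MIA40, which oxidizes proteins in the intermembrane space, fell by 0.65 ± 0.11 (SE), a call lost within batch 1 (adjusted p = 0.0751).

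The 2-fold genes that were lower late included further genes of mitochondrial gene expression, and 3 lists were added for them after their values were seen, so their counts are descriptions. Of 13 genes for mitochondrial tRNA synthetases, 12 (92.3%) were lower and none higher, against 28.3% and 23.3% of all probe sets, with a median of -0.71. MSF1 and MST1, for phenylalanine and threonine, read 9.34 and 9.31 on average in the late arrays, against 10.71 and 10.58 in the early arrays. Of 7 mitochondrial translation factor genes, 6 (85.7%) were lower, RRF1, the ribosome recycling factor, by -1.15 ± 0.07 (SE). Of 26 genes for cytochrome oxidase assembly, 18 (69.2%) were lower and none higher, with a median of -0.59 that was -0.38 within batch 1. PET117 and COA4 showed -1.14 ± 0.16 and -1.14 ± 0.09 (SE).

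As lists, genes of the respiratory chain and the tricarboxylic acid cycle differed less than those for cytochrome oxidase assembly. The latter list was added after its values were seen, which favours such a contrast, so the contrast is a description only. Of 41 genes for respiratory complexes and ATP synthase, 9 were lower (22.0%, against 28.3% of all probe sets) and none was higher, with a median of -0.05 that was 0.00 with scaling by the spikes. COX5B, the isoform of cytochrome oxidase subunit 5 that is favoured at low oxygen, was the 1 member at 2-fold. It read 8.74, 8.62, 8.67, 8.50 and 8.57 in the late arrays, against 9.72, 9.86 and 9.71 in the early arrays. The windows lay far apart relative to their spread, and it fell by 1.15 ± 0.06 (SE, adjusted p = 1.05e-05) on the log2 scale. CYC7, the cytochrome c isoform also favoured at low oxygen, fell by 0.63 ± 0.09, and NDI1, the internal NADH dehydrogenase, by 0.41 ± 0.06 (SE). Of 18 mitochondrial cycle genes 5 (27.8%) were lower, near the 28.3% of all probe sets. Their median of -0.10 was -0.03 with scaling by the spikes. The windows did not overlap for 10 of the 18, all lower late, against 27.2% of all probe sets. The isocitrate dehydrogenase genes IDH2 and IDH1 fell by 0.57 ± 0.06 and 0.49 ± 0.08 (SE).

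The glyoxylate cycle and gluconeogenesis, which together build sugars from acetate and ethanol, held some of the steepest falls. Their list also holds genes of acetate use, and no separate counts were made. Of its 23 genes, 13 (56.5%) were lower and 3 (13.0%) higher late, against 28.3% and 23.3% of all probe sets. The list median of -0.19 was -0.30 within batch 1. PCK1, phosphoenolpyruvate carboxykinase, the first committed step of gluconeogenesis, read 8.78, 8.97, 8.67, 8.61 and 8.86 in the late arrays, against 11.69, 11.39 and 10.94 in the early arrays. The early values were already falling, the late ones were level, and no late array came near an early one. The fall was 2.57 ± 0.16 on the log2 scale (SE, adjusted p = 1.36e-05), 5.93-fold. Its highest array was that at 77.14 degrees, just before the early window, and its mean from 5.93 to 41.54 degrees was 8.90, close to the late mean of 8.78.

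ICL1, isocitrate lyase of the glyoxylate cycle, read 11.24, 11.20, 11.24, 11.35 and 11.41 in the late arrays, against 13.43, 13.26 and 12.68 in the early arrays. It fell by 1.83 ± 0.15 (SE, adjusted p = 3.79e-05), and the early window included its highest array of the cycle, at 89.01 degrees. MLS1, malate synthase, the next enzyme of that cycle, fell by 0.82 ± 0.08, and CRC1, the mitochondrial carrier of acetylcarnitine, by 1.20 ± 0.12 (SE). FBP1, fructose-1,6-bisphosphatase, which completes gluconeogenesis, had a difference of -0.40 and passed with overlapping windows; ACS1 and ADY2, for acetate activation and uptake, had 0.06 and 0.09 and did not. These 3 genes were named after their values were seen.

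Transport genes with the same short course stood beside them. HXT17, a member of the hexose transporter family, read 5.59, 5.57, 5.78, 5.18 and 5.89 in the late arrays, against 8.54, 8.26 and 7.56 in the early arrays. It is dim, with a geometric mean intensity of 48.5 late and 278.6 early, and it fell by 2.52 ± 0.23 (SE, adjusted p = 5.62e-05). HXT13 and HXT15, close paralogs that can share its hybridization, fell by 0.98 ± 0.08 and 0.62 ± 0.19 (SE). The call of HXT13 was lost in a fit over all 31 arrays (adjusted p = 0.189), and that of HXT15 was lost without the array at 89.01 degrees, within batch 1 and with serial correlation. The whole list of 17 hexose transporters and sensors gave 5 (29.4%) higher and 4 (23.5%) lower, against 23.3% and 28.3% of all probe sets. STL1, the glycerol importer, read 9.70, 9.61, 9.72, 9.78 and 9.69 in the late arrays, against 11.81, 11.06 and 10.44 in the early arrays, dropping steeply across the early window. It fell by 1.40 ± 0.25 (SE, adjusted p = 0.00159), with -2.11 within batch 1 and -1.05 within batch 2.

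**Figure D3:**
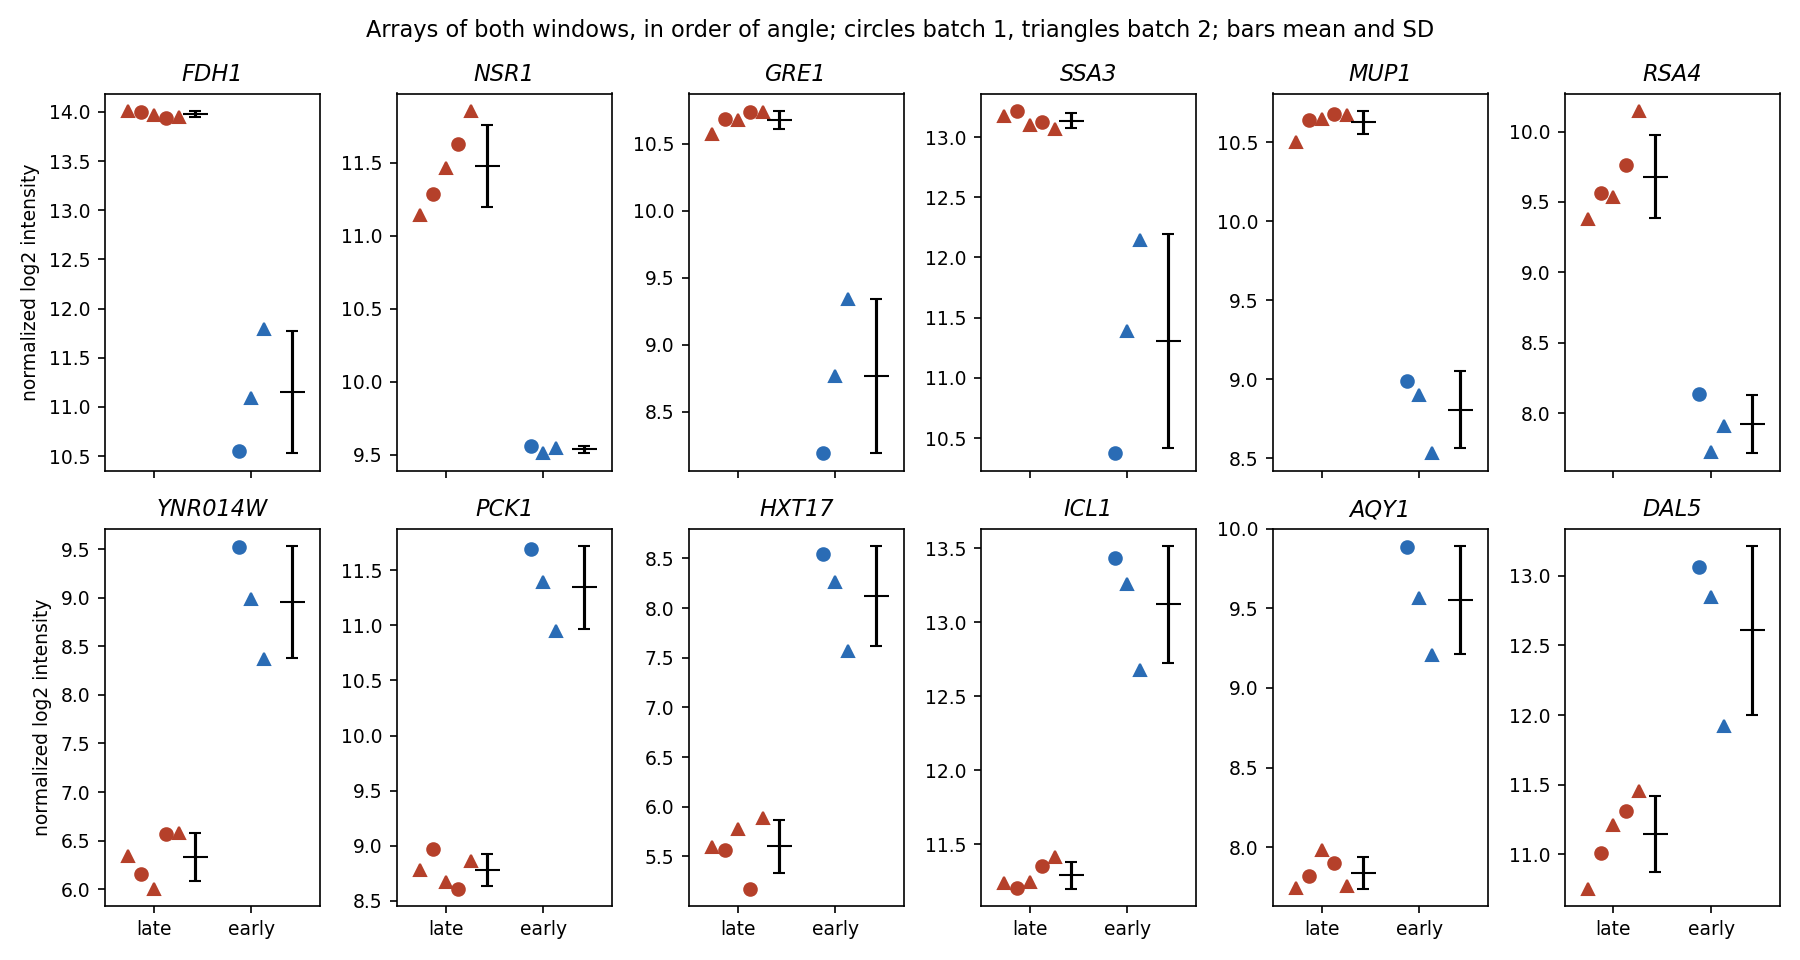
Normalized log2 intensity (vertical axes, 1 panel per gene) in each late array (left, red) and each early array (right, blue), in order of phase angle within the window; circles are batch 1, triangles batch 2, and the black marks give the mean and SD of each window. The upper row shows genes higher late and the lower row genes lower late; FDH1, GRE1 and SSA3 climb within the early window, while PCK1, HXT17, ICL1 and DAL5 drop within it.

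Of 21 storage carbohydrate genes, for glycogen and trehalose, 12 (57.1%) were lower late and none higher, against 28.3% and 23.3% of all probe sets. Their median of -0.28 was -0.13 within batch 1 and -0.38 within batch 2. PGM2, phosphoglucomutase, which links glycolysis to storage sugars, read 12.25, 12.15, 12.18, 12.01 and 12.07 in the late arrays, against 13.00, 13.19 and 13.25 in the early arrays. The windows did not overlap, and it fell by 1.02 ± 0.07 (SE, adjusted p = 2.3e-05). GSY1, a glycogen synthase, GDB1, the debranching enzyme, and TSL1, a regulatory subunit of trehalose synthase, fell by 0.84 ± 0.12, 0.76 ± 0.10 and 0.63 ± 0.11 (SE), though TSL1 lost its call within batch 1 (adjusted p = 0.0558). All 21 genes rose within the early window, by a median of 0.36, and 16 had their highest window mean only from 124.62 to 172.09 degrees. The early arrays thus stood on the way up and the late arrays on the way down from that peak.

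Glycolysis showed no common direction, with 6 of 21 genes (28.6%) higher and 6 (28.6%) lower, against 23.3% and 28.3% of all probe sets. The 6 that were lower included PYK2, the minor pyruvate kinase, which fell by 0.69 ± 0.06 (SE), and FBP26, which removes fructose 2,6-bisphosphate and fell by 0.38 ± 0.07 (SE) with the call lost within batch 1 (adjusted p = 0.118). GPM2 and GPM3, homologs of a phosphoglycerate mutase gene, passed at -0.32 ± 0.11 and -0.35 ± 0.06 (SE). However, GPM2 had 0.01 within batch 1 and GPM3 had 0.09 with scaling by the spikes. Of 18 genes of ethanol and aldehyde metabolism, 3 (16.7%) were higher and 6 (33.3%) lower. BDH2, a butanediol dehydrogenase homolog, read 11.61, 11.48, 11.44, 11.38 and 11.17 in the late arrays, against 12.63, 12.61 and 12.52 in the early arrays. Late values declined steadily, and the fall was 1.17 ± 0.09 (SE, adjusted p = 2.73e-05). ALD5, a mitochondrial aldehyde dehydrogenase, rose by 0.78 ± 0.04 (SE).

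Some genes were higher late without having their highest window in the burst. FDH1, which oxidizes formate, read 14.01, 14.00, 13.97, 13.94 and 13.95 in the late arrays, against 10.56, 11.09 and 11.79 in the early arrays. The late values were level near the top of the scale and the early values climbed steeply from a low at 77.14 degrees. The difference was 2.83 ± 0.22 (SE, adjusted p = 3.04e-05), 3.41 within batch 1 and 2.53 within batch 2. GRE1, a hydrophilin of desiccation stress, read 10.57, 10.69, 10.67, 10.73 and 10.74 in the late arrays, against 8.19, 8.77 and 9.34 in the early arrays, a rise of 1.91 ± 0.21 (SE, adjusted p = 0.000149). SSA3, an HSP70 chaperone of the stress-induced kind, read 13.18, 13.22, 13.10, 13.13 and 13.07 in the late arrays, against 10.37, 11.39 and 12.15 in the early arrays. Its rise of 1.83 ± 0.32 (SE, adjusted p = 0.00153) was 2.80 within batch 1, where the only early array is the lowest, and 1.34 within batch 2.

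Of the 169 genes higher at 2-fold or more, 19 did not have their highest window in the burst, and 14 of these rose within the early window, by a median of 0.95 over all 19. The size of such differences depends on where the early window begins. POT1, the thiolase of peroxisomal beta-oxidation, rose by 1.15 ± 0.28 (SE), but by 0.75 without the array at 89.01 degrees, and its call was lost with serial correlation (adjusted p = 0.10). NQM1, a transaldolase paralog, rose by 1.08 ± 0.24 (SE), by 0.72 without that array, and lost its call in the same way (adjusted p = 0.0706). FAT3, which acts in fatty acid uptake, rose by 0.90 ± 0.28 (SE), by 0.51 without that array, and its call was lost within batch 2 (adjusted p = 0.114) and with serial correlation (adjusted p = 0.183). Of 22 genes for peroxisomal fatty acid oxidation, 6 (27.3%) were higher and 3 (13.6%) lower, against 23.3% and 28.3% of all probe sets, with a median of 0.23 that was 0.52 within batch 1 and 0.11 within batch 2. BSC4, a gene of no list, was very dim, at a geometric mean intensity of 49.96 late and 8.62 early. None of its early arrays lay above the background intensity of 17.04, so it was at least 2.93-fold higher late, and its call was lost with serial correlation (adjusted p = 0.196).

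Most stress genes did not share that rise. Of 44 stationary phase and stress genes, 6 (13.6%) were higher and 21 (47.7%) lower late. Their median of -0.16 was -0.04 within batch 1 and -0.30 within batch 2. YNL194C, a membrane protein gene of the cell cortex, read 10.47, 10.32, 10.30, 10.27 and 10.10 in the late arrays, against 11.29, 11.69 and 11.98 in the early arrays, and fell by 1.36 ± 0.14 (SE, adjusted p = 0.000116). FMP48, a putative mitochondrial kinase gene, fell by 1.36 ± 0.09 (SE). Of 30 chaperone genes, 4 (13.3%) were higher and 3 (10.0%) lower, against 23.3% and 28.3% of all probe sets. Of 36 proteasome genes, 2 (5.56%) were higher and 2 (5.56%) lower. All 36 proteasome genes had their lowest window from 5.93 to 41.54 degrees, and their differences between the late and early windows lay between -0.12 and 0.22. Of 29 autophagy genes, 4 (13.8%) were higher and 11 (37.9%) lower, and of 13 for vacuolar hydrolases, 2 (15.4%) were higher and 6 (46.2%) lower. ATG17, a scaffold of the autophagy initiation complex, fell by 0.65 ± 0.08 (SE), a call lost with scaling by the spikes (adjusted p = 0.0517). APE1, a vacuolar aminopeptidase, fell by 0.41 ± 0.04 (SE), while PAI3, an inhibitor of the vacuolar protease A, rose by 0.83 ± 0.22 (SE), 0.55 without the array at 89.01 degrees.

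The redox lists were mixed. Of 35 genes for thioredoxin, glutathione and antioxidants, 8 (22.9%) were higher and 8 (22.9%) lower, against 23.3% and 28.3% of all probe sets. SRX1, sulfiredoxin, which repairs oxidized peroxiredoxin, fell by 0.98 ± 0.07 (SE), and GSH1, the first enzyme of glutathione synthesis, rose by 0.75 ± 0.08 (SE). Of 27 peroxin genes, which build peroxisomes, 2 (7.41%) were higher and 12 (44.4%) lower. Their median of -0.06 was 0.01 with scaling by the spikes. PEX17, part of the docking complex for peroxisomal import, fell by 0.54 ± 0.07 (SE), a call lost with the spikes (adjusted p = 0.163). Of 29 genes for folding in the endoplasmic reticulum and secretion, 3 (10.3%) were higher and 8 (27.6%) lower. MPD1, a relative of protein disulfide isomerase, fell by 0.70 ± 0.05 (SE).

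Nitrogen genes held members of both kinds. Of 30 genes under nitrogen catabolite control, 7 (23.3%) were higher and 7 (23.3%) lower, against 23.3% and 28.3% of all probe sets. DAL5, the allantoate permease, read 10.76, 11.01, 11.21, 11.31 and 11.45 in the late arrays, against 13.06, 12.85 and 11.92 in the early arrays. It was rising late and dropping early, with its highest array at 29.67 degrees and its lowest at 172.09 degrees, and the late window was lower by -1.46 ± 0.26 (SE, adjusted p = 0.00159). UGA4, the GABA permease, read 9.24, 9.27, 9.49, 9.55 and 9.95 in the late arrays, against 11.08, 10.74 and 10.15 in the early arrays, and differed by -1.16 ± 0.22 (SE). DUR3, the urea permease, differed by -0.85 ± 0.36 (SE) with overlapping windows and did not pass (adjusted p = 0.0775). AGP1, a broad amino acid permease, was higher by 0.90 ± 0.21 (SE), 0.29 within batch 1 with the call lost there (adjusted p = 0.0666) and with serial correlation (adjusted p = 0.102). OPT2, an oligopeptide transporter family member, was lower by -1.56 ± 0.18 (SE), with 9.79 to 10.32 in the late arrays, against 11.31 to 11.96 in the early arrays.

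Of 27 phosphate genes, 6 (22.2%) were higher and 9 (33.3%) lower late, shares near those of all probe sets. PHO84 and PHO89, the high-affinity phosphate transporters, fell by 0.98 ± 0.12 and 0.94 ± 0.10 (SE), while PHO90, a low-affinity transporter, rose by 0.69 ± 0.10 (SE). Of 33 genes for iron and copper uptake, 14 (42.4%) were lower and 2 (6.06%) higher, with a median of -0.12 that was -0.05 with scaling by the spikes. FET3, the multicopper oxidase of high-affinity iron uptake, read 9.23, 9.23, 9.19, 9.31 and 9.44 in the late arrays, against 10.39, 10.14 and 10.02 in the early arrays, and fell by 0.90 ± 0.09 (SE, adjusted p = 8.86e-05). FIT2, a cell wall mannoprotein that retains iron-siderophore, fell by 0.73 ± 0.12, and ENB1, the enterobactin transporter, by 0.70 ± 0.10 (SE).

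The lists of lipid synthesis held more higher than lower calls late. Of 27 genes for ergosterol and its mevalonate precursor, 16 (59.3%) were higher and 3 (11.1%) lower, against 23.3% and 28.3% of all probe sets. Their median of 0.23 was 0.10 on the deposited scale and 0.14 within batch 1. CYB5, cytochrome b5, an electron donor in sterol and lipid synthesis, read 12.21, 12.19, 12.21, 12.24 and 12.17 in the late arrays, against 11.04, 10.78 and 10.73 in the early arrays. The late values were level and the early values fell, and the rise was 1.36 ± 0.07 (SE, adjusted p = 1.04e-05). UPC2, which encodes a sterol-sensing transcription factor, and IDI1, isopentenyl diphosphate isomerase, rose by 0.65 ± 0.10 and 0.61 ± 0.07 (SE). ERG4, the last enzyme of the pathway, went the other way, with 11.91, 12.04, 12.01, 12.10 and 12.16 in the late arrays, against 13.10, 12.84 and 12.67 in the early arrays, and a difference of -0.83 ± 0.10 (SE, adjusted p = 0.000183).

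Of 17 genes for fatty acid synthesis and desaturation, 9 (52.9%) were higher and 1 (5.88%) lower, with a median of 0.19. Of 26 for inositol and phospholipids, 14 (53.8%) were higher and 5 (19.2%) lower. The median of these 26 was 0.16, and 0.10 on the deposited scale. Among all probe sets 23.3% were higher and 28.3% lower. ELO3, a fatty acid elongase, rose by 0.70 ± 0.09, INO2, an activator of phospholipid genes, by 0.75 ± 0.10, INM1, inositol monophosphatase, by 0.69 ± 0.05, and CDS1, CDP-diacylglycerol synthase, by 0.61 ± 0.04 (SE). GIT1, a permease for glycerophosphoinositol, fell by 0.79 ± 0.09 (SE).

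Of 21 G1 cyclin and Start genes, 10 (47.6%) were lower and 2 (9.52%) higher late, against 28.3% and 23.3% of all probe sets. Their median of -0.21 was -0.04 with scaling by the spikes, which moved all probe sets up. CLN2, the G1 cyclin that drives entry into S phase, read 9.37, 9.46, 9.40, 9.69 and 9.59 in the late arrays, against 10.19, 10.02 and 10.17 in the early arrays. The windows did not overlap, and it fell by 0.63 ± 0.08 (SE, adjusted p = 0.000356). SIC1, the inhibitor of S phase cyclin kinase, fell by 0.61 ± 0.09 (SE). Of 50 genes for DNA replication, 20 (40.0%) were lower and 7 (14.0%) higher, with a median of -0.13 that was 0.07 with scaling by the spikes. CDC6, which loads the replicative helicase, was higher, with 9.77, 9.73, 9.76, 9.94 and 9.91 in the late arrays, against 8.58, 8.72 and 8.91 in the early arrays, a rise of 1.08 ± 0.08 (SE, adjusted p = 2.73e-05). MCM7, a subunit of that helicase, rose by 0.55 ± 0.07 (SE), and PRI2, a primase subunit, fell by 0.56 ± 0.06 (SE).

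Of 14 daughter cell separation genes, which act at the end of division, 10 (71.4%) were higher late and none lower, with a median of 0.47. Among all probe sets 23.3% were higher and 28.3% lower. DSE1, expressed in daughter cells, read 10.90, 10.81, 10.60, 10.51 and 10.65 in the late arrays, against 9.96, 9.95 and 10.01 in the early arrays. The late values fell over the first 4 arrays of the window and every one lay above the early values. Of the 14 genes, 10 had their highest window from 183.96 to 231.43 degrees, before the late one. The difference for DSE1 was 0.72 ± 0.09 (SE, adjusted p = 0.000216). AMN1, an antagonist of mitotic exit in daughters, and SUN4, a septation gene, rose by 0.64 ± 0.09 and 0.59 ± 0.07 (SE). Of 35 genes for G2 and M phase, 8 (22.9%) were higher, near the share of all probe sets, and 7 (20.0%) lower, among the higher ones CDC5, the polo kinase, which rose by 0.49 ± 0.07 (SE). Of 10 histone genes 3 (30.0%) were lower, near the 28.3% of all probe sets, and none higher, with HTB2 falling by 0.38 ± 0.06 (SE). Fewer cells in a stage and less RNA per cell cannot be told apart in such bulk samples, here and for every group above.

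Several of the steepest falls were in genes of no list. YNR014W, the largest of all, read 6.35, 6.16, 6.01, 6.57 and 6.58 in the late arrays, against 9.52, 8.99 and 8.37 in the early arrays, dropping across the early window. It fell by 2.63 ± 0.24 (SE, adjusted p = 6.2e-05). YJR115W, also of unknown function, was steadier, with 9.01 to 9.15 in the late arrays, against 10.72 to 10.92 in the early arrays, and fell by 1.74 ± 0.06 (SE). AQY1, a water channel linked to sporulation, MGA1, a protein related to heat shock factor, MTC3 and AIM33 fell by 1.71 ± 0.13, 1.67 ± 0.14, 1.50 ± 0.15 and 1.41 ± 0.08 (SE).

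The remaining lists had no common direction. Among all probe sets the shares were 23.3% higher and 28.3% lower. Of 36 cell wall protein genes 8 (22.2%) were higher and 9 (25.0%) lower. UTR2, a chitin transglycosylase, rose by 0.99 ± 0.11 and TIR1, a cold and low-oxygen mannoprotein, fell by 0.78 ± 0.10 (SE). Of 34 meiosis genes 5 (14.7%) were higher and 6 (17.6%) lower. The counts were 3 (23.1%) and 4 (30.8%) of 13 pentose phosphate genes, and 4 (33.3%) and 4 (33.3%) of 12 glycerol genes. RKI1, ribose-5-phosphate isomerase, rose by 1.12 ± 0.22 (SE), with a call lost within batch 1 (adjusted p = 0.119). Among the reference genes, ACT1 differed by -0.01 ± 0.04, TDH3 by -0.06 ± 0.06 and PMA1 by 0.05 ± 0.04 (SE), with adjusted p-values of 0.815, 0.401 and 0.274. ADH2, the alcohol dehydrogenase of ethanol use, was higher by 0.20 ± 0.05 (SE, adjusted p = 0.00701).

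**Figure D4:**
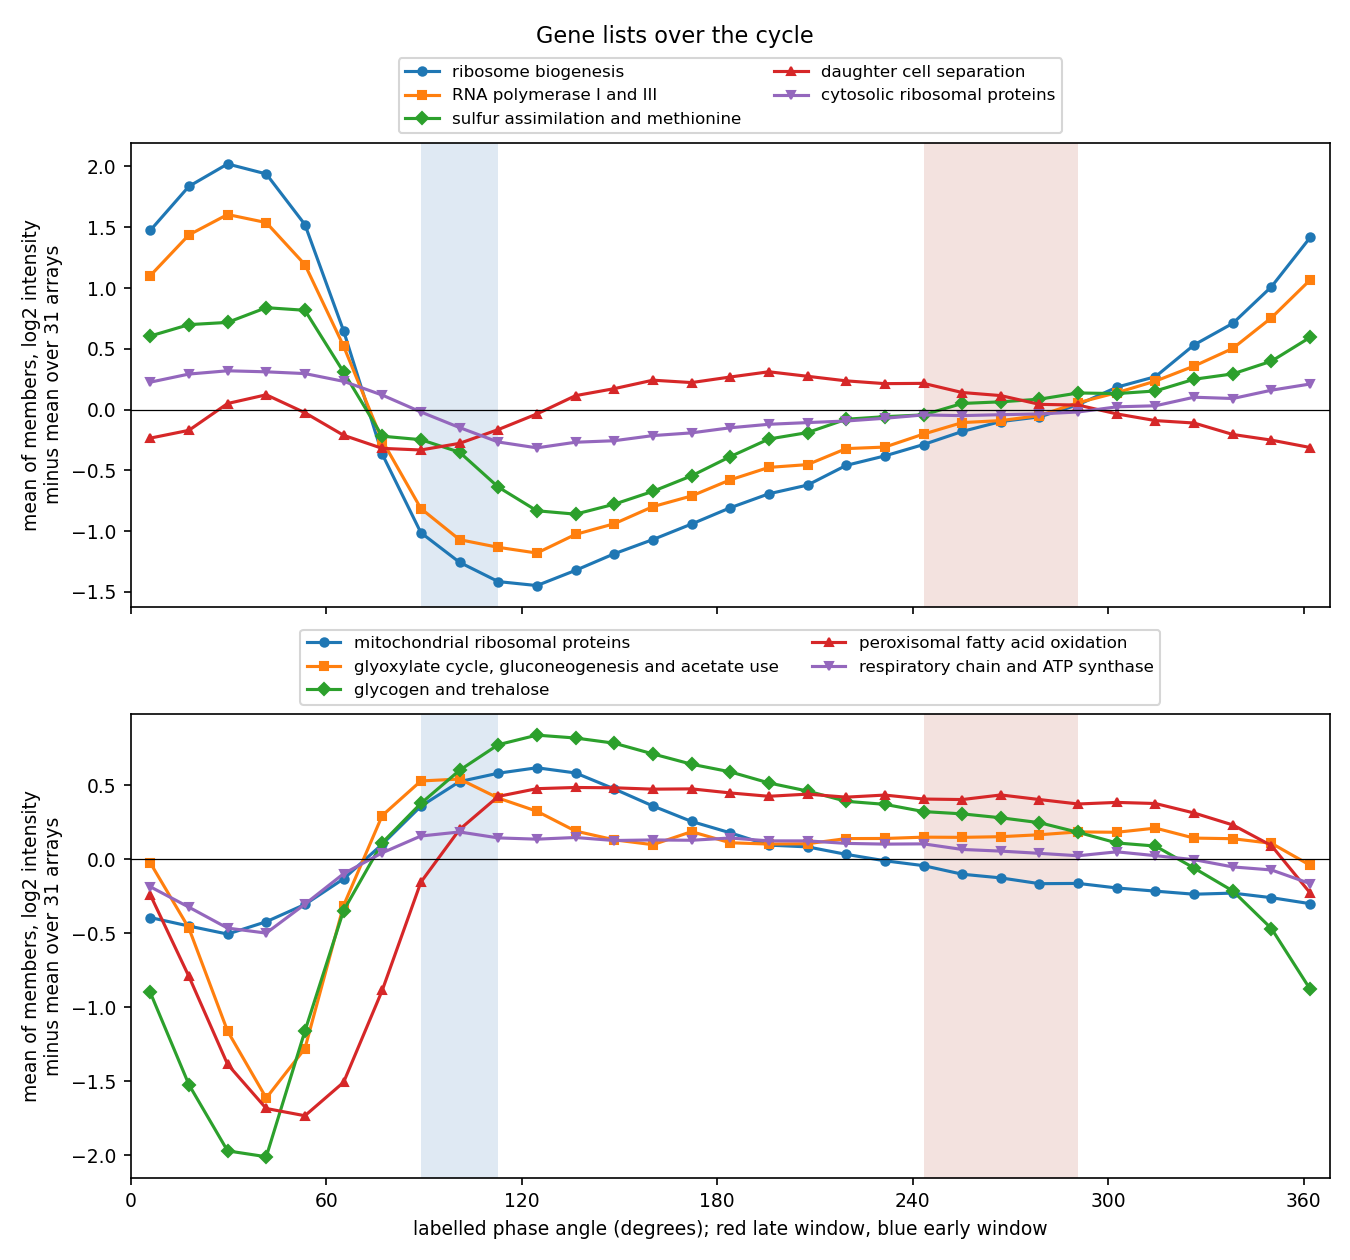
Mean of each list's members over the 31 arrays (vertical axes, log2 intensity minus each gene's mean over all arrays) by labelled phase angle (horizontal axis, degrees), with the late window shaded red and the early window blue. Ribosome biogenesis and RNA polymerase I and III bottom out around the early window and climb through the late one, while mitochondrial ribosomal proteins and glycogen and trehalose peak in or just after the early window and decline through the late one.

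The order of the courses can be read over all windows. Relative to the early window, the median ribosome biogenesis gene stood at 0.09 from 124.62 to 172.09 degrees, 0.70 from 183.96 to 231.43, 1.16 in the late window and 1.78 from 302.64 to 350.11 degrees. The median mitochondrial ribosomal protein gene stood at -0.03, -0.41, -0.59 and -0.68 over the same windows. Glycogen and trehalose genes stood at 0.17, -0.12, -0.28 and -0.63, and reached -2.10 from 5.93 to 41.54 degrees. Genes of the glyoxylate cycle, gluconeogenesis and acetate use had already dropped to -0.20 by 124.62 to 172.09 degrees. They stayed at -0.19 and -0.19 through the late window. Daughter separation genes stood at 0.49, 0.63, 0.47 and 0.16, a broad hump whose top lay between the windows compared.

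**Figure D5:**
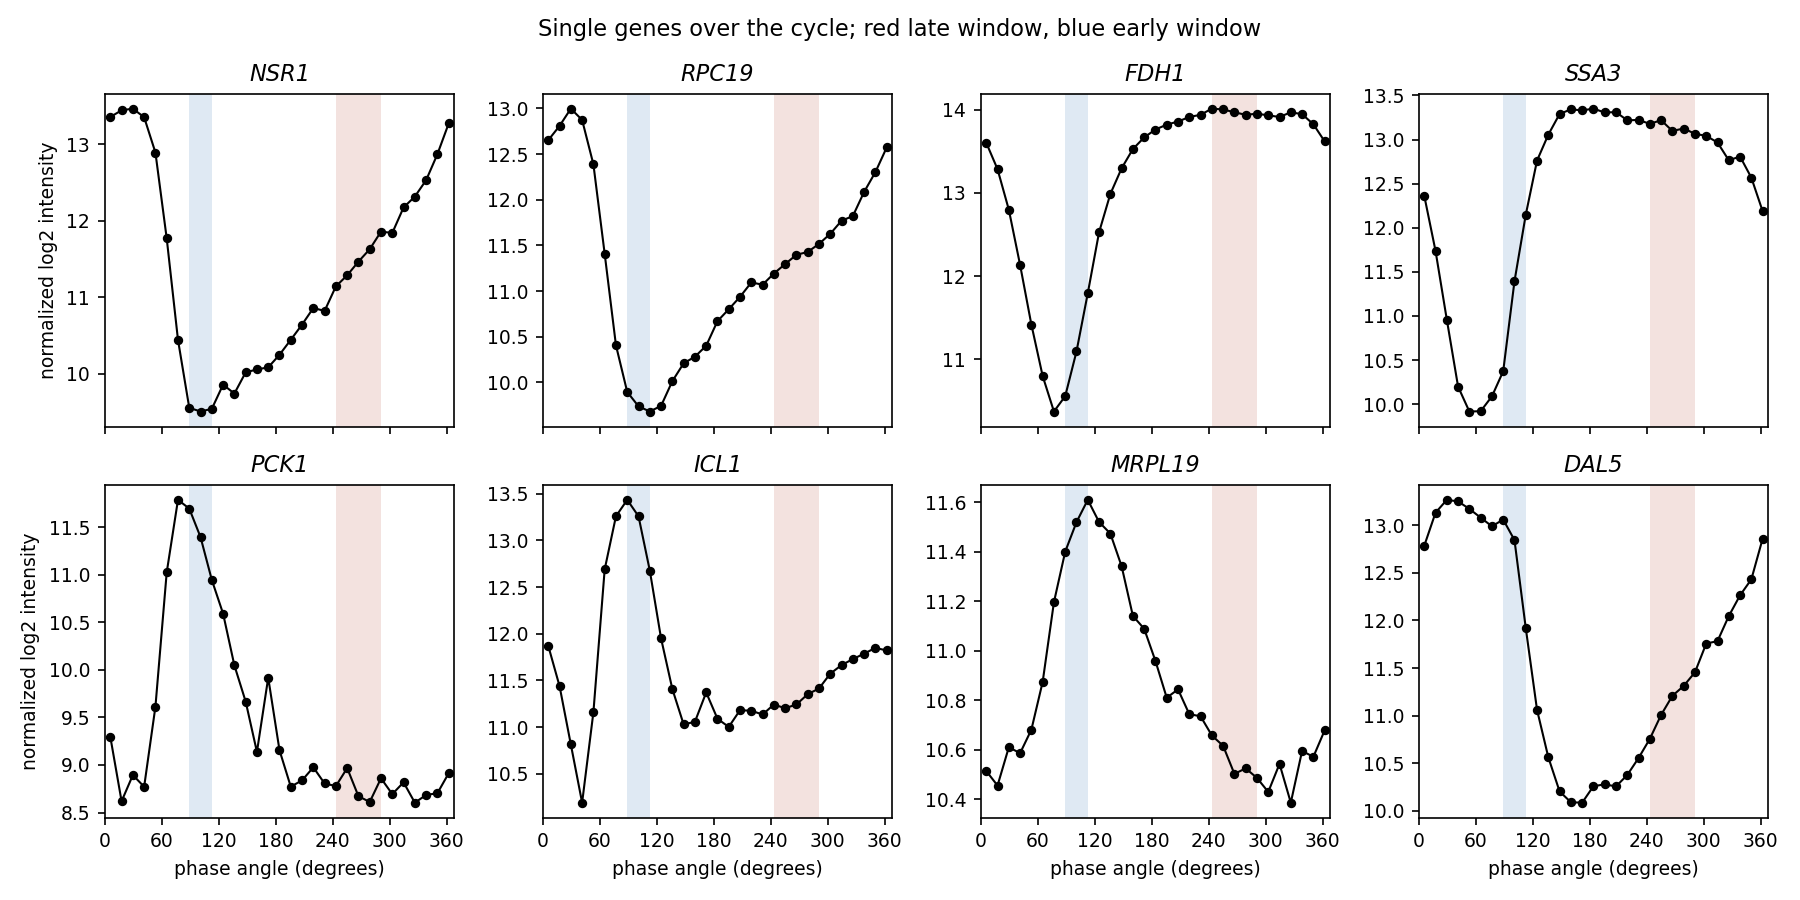
Normalized log2 intensity of 8 genes (vertical axes) by labelled phase angle (horizontal axis, degrees) in all 31 arrays, 1 panel per gene, with the late window shaded red and the early window blue. NSR1 and RPC19 rise steadily from the early window on, FDH1 and SSA3 jump to a plateau, PCK1 and ICL1 show a short peak around the early window, MRPL19 declines slowly and DAL5 dips between the windows.

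Single genes in that plot followed different courses. NSR1 averaged 13.40 in the burst and 11.48 late, against 9.54 early, on a steady climb. FDH1 averaged 13.86 from 183.96 to 231.43 degrees and 13.97 late, against 11.15 early, on a plateau reached before the late window. PCK1 averaged 8.91 from 183.96 to 231.43 degrees and 8.78 late, against 11.34 early, after a peak at 77.14 degrees. DAL5 averaged 10.34 from 183.96 to 231.43 degrees and 11.15 late, against 12.61 early, so its late values were already recovering from a trough that neither window held.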

How the data were processed

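RNA of 31 samples was amplified from oligo(dT) and hybridized to Affymetrix Yeast 2.0 arrays, per the labels' protocols. The deposited values are linear signal intensities per probe set, made by the authors with GCOS per the submitters' processing notes; no settings were stated. Of 10928 probe sets, 5498 were annotated to S. cerevisiae genes (names updated with the R64 gene table), and a probe set was kept where its median intensity exceeded 17.04, the 95th percentile of probe sets outside S. cerevisiae. Intensities were log2-transformed and quantile normalized over all 31 arrays. The late and early windows were compared with limma 3.58.1 in R 4.3.3 (8 arrays, Benjamini-Hochberg adjustment over 5422 probe sets, threshold 0.05), after a test on simulated data. Figures were drawn with matplotlib 3.10.9. SE is the standard error of the late minus early difference. Window means over the other arrays are descriptions.

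The alternatives were the deposited scale, median centring, scaling by hybridization spikes, normalization over the 8 arrays, other filters, all 31 arrays, batch (sets of arrays split by array number, as the spike controls divide; the labels name none) as a term, within batches, serial correlation of 0.5, a shared slope, limma's trend and robust options, each array left out, and, added after seeing the data, each probe set's own variance on the deposited scale. The labels give no replicate numbers, so arrays were numbered in accession order. Named genes were the 12 largest differences in each direction among calls without overlap, up to 4 members per list with the largest absolute difference, and ACT1, TDH3, PMA1 and ADH2; exceptions are marked. For a gene with several probe sets the one with the highest median intensity was used. The windows and the 40 gene lists were chosen with earlier results of these data known, and 3 lists were added after values were seen. Promoter sequences and gene coordinates were not analysed here.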

Additional observations from a re-analysis of the deposited data

Results flagged for a closer look

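Of the genes named by rule, 9 (5.17%) had 1 late array standing apart from the other 4 by Dixon's criterion, and chance alone flags about 1 group in 20. The array at 243.30 degrees, the first of the late window, read low for MUP1 (10.50, others from 10.64), RPA12 (10.24, others from 10.50), ELO3 (11.79, others from 11.88) and PCL2 (7.08, others from 7.40), and high for RPN2 (12.67, others up to 12.62). The array at 290.77 degrees, the last of the window, read low for MTC3 (8.92, others from 9.21), RSM26 (10.17, others from 10.37), PYK2 (10.52, others from 10.71) and ALK1 (10.49, others from 10.64). No cause was tested.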

How the results depend on the processing

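Against 2798 calls, there were 954 on the deposited scale (579 higher late and 375 lower, 895 of them shared in direction), 1479 within batch 1 (726 and 753, 1266 shared) and 1268 with serial correlation of 0.5 (593 and 675, all shared). On the deposited scale limma estimated 1 variance for all probe sets, so a call there says only that the difference was 0.499 or more; with each probe set's own variance, an alternative chosen after seeing the data, 402 were called (283 and 119, with 28 lower at 2-fold or more), and 30 of the 214 calls at 2-fold or more were lost. Scaling by the hybridization spikes gave 1915 higher and 743 lower, with 277 and 23 at 2-fold or more, against 170 and 44. Leaving out each array in turn gave 2203 to 2823 calls, 993 to 1319 higher and 1210 to 1504 lower. The 214 calls at 2-fold or more were picked for a large difference in these same arrays, so a change of direction was unlikely. All 214 kept their direction under every alternative that tested them, and 2 were not tested under the stricter filter. All but 13 stayed called with serial correlation. Among the named genes, GPM3 changed sign with the spikes (0.0917, adjusted p = 0.183) and GPM2 within batch 1 (0.00736, adjusted p = 0.952). With serial correlation 41 named genes lost their call, and within batch 1 38; the cause was not tested. Within batch 1 only 2 late arrays met 1 early array, whose spread is assumed to be that of the late arrays. That fit took most of each variance from the other probe sets. Calls kept or lost within batch 1 are therefore weak evidence, here and above. No paired analysis was possible because the labels give the arrays of the windows no shared replicate numbers.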

Other observations

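Of the 169 genes higher at 2-fold or more, 93 were in none of the lists, and of the 43 lower, 23 were in none; the genes named here were chosen after their values were seen. Among the first were further ribosome assembly genes. PRP43, an RNA helicase, averaged 9.99 in the late arrays and 8.48 in the early arrays. NIP7, a large subunit factor, averaged 10.66 late and 9.20 early, and TRM11, a tRNA methyltransferase subunit, 9.14 late and 7.68 early. The amino acid permease gene TAT1 was higher by 1.12 ± 0.11 (SE), and BAS1, a regulator of purine and histidine genes, by 1.42 ± 0.10 (SE).

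Genes of the mating response were among those lower late. FUS3, a mating kinase, averaged 6.96 in the late arrays and 8.20 in the early arrays, a difference of -1.24 ± 0.17 (SE). MF(ALPHA)1, a precursor of alpha factor, averaged 10.31 late and 11.33 early, and PRM10, a pheromone-regulated gene, 8.02 late and 9.19 early. STE3 and MFA2 also passed, at -0.53 and -0.56, while MFA1, at -0.17, did not (adjusted p = 0.24). STE2, at -0.18, passed (adjusted p = 0.0269), but its call was lost with serial correlation (adjusted p = 0.213) and in 4 fits with an array left out.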
